A study of Mus musculus with 6 samples.

Results

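The 9 genes described here code for nicotinic acetylcholine receptor subunits, which are Chrna3, Chrna4, Chrna5, Chrna7, Chrnb2, Chrnb3 and Chrnb4, and for a pair of proteins of cholinergic neurons, Chat and Slc5a7. They were taken by symbol from the 19465 genes counted in each of 6 sections of mouse brain, and each symbol was listed in all 6. The sections came from untreated male C57BL/6J mice, 2 per age, at P21, at 12 to 15 weeks (adult) and at 28 months (aged). Formalin-fixed tissue was measured on Visium slides, on which a fixed panel of probes is read at barcoded spots, so that a spot is a small area of tissue with several cells or parts of cells. Aged tissue was moved to the slide by CytAssist and read with a later slide version and a later Space Ranger release than the other ages. For the aged libraries the paper also describes an enhanced probe design, meant to capture more transcripts. These differences cannot be told apart from age.

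Nicotinic receptors are channels of 5 subunits that open when acetylcholine binds, and the subunits they hold set their sensitivity and their passage of calcium. Receptors of alpha4 and beta2 are the common heteromeric form in forebrain and alpha7 forms channels by itself, while alpha3 and beta4 are best known from autonomic ganglia and from the medial habenula, a small dorsal nucleus beside the third ventricle. Neurons of the ventral part of the medial habenula release acetylcholine in the midbrain together with glutamate. Chat makes acetylcholine and Slc5a7 takes choline back up into the terminal.

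Values are UMIs, that is distinct probe molecules counted, summed over the spots of a zone in a section and given as CPM, which scales a count to the total of its sum. Levels were compared within a gene and not between genes, because probes of different genes can capture with different efficiency. A spot was taken as habenula by 6 marker genes (Tac2, Gpr151, Pou4f1, Lrrc55, Nwd2 and Gng8). Their summed CPM in the spot itself had to reach 5 times the section mean. At least 4 of the 6 also had to reach 5 times their section mean over the spot and its touching neighbors together. The spot also had to lie in a group of at least 5 touching spots of this kind. None of the 9 genes took part in that rule or in the clustering that gave the other zones. The habenula held 40 and 33 spots in the P21 sections, 37 and 59 in the aged sections and 22 in adult section 2. Adult section 1 had no such spots, so every habenula value for adults rests on 1 section. The other zones were cortex (CTX), hippocampus (HP), thalamus (TH), reticular thalamus (RT), hypothalamus (HY), striatum (STR), fiber tracts (FT), choroid plexus of the ventricular system (VS), meninges with vessels, and a cluster that matched no marker panel and was left unnamed. Genes known from the medial habenula that the rule did not use gave a check of the zone. Calb2, Slc17a6, Tac1 and Wif1 were higher in it than in the rest of the section in 5 of 5 sections. Slc17a7, the fifth of these genes and one that cortex and hippocampus express strongly, was lower in it, at 943 to 1613 CPM against 1593 to 2066 CPM.

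The sections held 42422997 to 106783660 UMIs and 2917 to 3679 spots, with a median of 12074.5 to 25535 UMIs per spot. Habenula spots were deeper than the rest, with 19583.5 to 46732.5 against 12009 to 25485 UMIs at the median over the 5 sections. Summed markers of choroid plexus, which borders the habenula, were at 7106 and 9662 CPM in the habenula at P21. They were at 205 CPM there in adult section 2, and at 4359 and 53.3 CPM in the aged sections. The rest of these sections had 2369, 2178, 1503, 2727 and 1903 CPM in the same order. Fewer cells of a type and less RNA per cell cannot be told apart in summed spots.

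Chrna3 and Chrnb4, which code for the alpha3 and beta4 subunits, lie next to each other and beside Chrna5 on chromosome 9 (GRCm38). Chrna5 runs from chr9:54980880-55007779 on the plus strand, Chrna3 from chr9:55010111-55026562 and Chrnb4 from chr9:55028154-55048779 on the minus strand, with 2331 and 1591 bases between neighbors and 67900 bases from end to end. The stretches of 250 bases before their starts are printed because Chrna3 and Chrnb4 were highest in the same zone and Chrna5 was not. They are RefSeq windows of build GRCm38.p6, read along each gene's own strand, and capitals mark the GC box GGGCGG or its reverse complement CCGCCC. Chrna3 has its window at chr9:55026563-55026812 and Chrnb4 at chr9:55048545-55048794, both on the minus strand. The Chrnb4 window lies mostly within the annotated gene, since RefSeq places a start downstream of the first base annotated there. Chrna5 has a pair on the plus strand, of which a, at chr9:54980630-54980879, ends at the annotated start and b, at chr9:54981238-54981487, lies within the annotated gene.
Chrna3: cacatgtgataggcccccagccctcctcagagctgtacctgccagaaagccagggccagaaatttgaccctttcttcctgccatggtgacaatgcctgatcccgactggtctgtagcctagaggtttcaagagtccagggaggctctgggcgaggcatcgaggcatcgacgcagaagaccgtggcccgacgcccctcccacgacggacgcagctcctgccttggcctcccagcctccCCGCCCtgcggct
Chrnb4: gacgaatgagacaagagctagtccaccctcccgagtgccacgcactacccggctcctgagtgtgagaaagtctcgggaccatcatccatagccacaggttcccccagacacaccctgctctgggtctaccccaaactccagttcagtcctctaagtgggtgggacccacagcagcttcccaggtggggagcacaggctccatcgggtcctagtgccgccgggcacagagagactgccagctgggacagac
Chrna5 a: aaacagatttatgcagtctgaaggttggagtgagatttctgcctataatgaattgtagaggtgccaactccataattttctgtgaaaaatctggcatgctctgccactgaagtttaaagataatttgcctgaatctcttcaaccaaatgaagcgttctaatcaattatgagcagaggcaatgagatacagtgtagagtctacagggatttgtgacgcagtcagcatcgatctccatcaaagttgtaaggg
Chrna5 b: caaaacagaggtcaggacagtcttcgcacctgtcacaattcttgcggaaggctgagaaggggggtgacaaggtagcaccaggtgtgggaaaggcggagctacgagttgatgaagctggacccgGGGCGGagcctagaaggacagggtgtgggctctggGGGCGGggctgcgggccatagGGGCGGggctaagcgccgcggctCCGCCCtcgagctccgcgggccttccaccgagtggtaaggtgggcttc
The Chrna3 window held 1 GC box, the Chrnb4 window 0, and the Chrna5 windows 0 and 4. Of 32851 windows of this length before mouse genes, 32.7% held at least 1 on either strand. The letters ATAATTAAT, searched on both strands as a core that the habenula factor Pou4f1 is known to bind, were in 0 of the windows of the 8 members that had one (Chrnb3 was not searched) and in 0.259% of all windows. These are matches of letters and say nothing of binding.

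Chrna3 was high in the habenula and low in all other zones at each age. Its habenula level was 375 and 463 CPM at P21, 238 CPM in adult section 2, and 335 and 437 CPM in the aged sections. The rest of the same sections had 9.51, 9.01, 2.52, 1.05 and 1.41 CPM, and no value of any other zone reached the lowest habenula value. The zone with the next highest level was HP, with 17.1 CPM, or TH, with 11.4 CPM, at P21, and HY, with 4.61 to 6.52 CPM, in the other 3 sections. The habenula, with 22 to 59 of 3259 to 3679 spots, held 44.9%, 49.3%, 48.6%, 74.7% and 86.5% of all Chrna3 UMIs of a section. A UMI of Chrna3 was seen in 71.2% or more of the habenula spots of each section and in 2.31 to 18.8% of the others. The log2 difference between habenula and the equally weighted mean of the other 10 zones was 7.14 ± 0.19 (SE, edgeR adjusted p = 2.2e-37). Chrna3 was higher than each of the 10 zones, by 5.83 (HY) to 8.10 (RT). The SE and p of this and the other zone differences below come from a fit over 65 sums of a section and a zone. They do not measure the spread over the 5 sections with a habenula. Over those 5, the log2 ratio of habenula to rest (CPM + 1) had a mean of 6.33 and an SD of 1.06.

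Chrnb4 was highest in the same zone. In the habenula it was at 133 and 176 CPM at P21, 82.7 CPM in the adult section, and 142 and 185 CPM in aged sections. Outside it the 6 sections ranged from 0.17 to 1.99 CPM, and the groups did not overlap. The habenula held 58.0 to 86.3% of the Chrnb4 UMIs of these 5 sections. The log2 difference was 7.17 ± 0.21 (adjusted p = 6.6e-36). The second zone on average was VS, the choroid plexus, with 2.63 to 14.6 CPM over 6 sections from 3 to 7 UMIs, although HP led it in P21 section 1 (6.15 against 3.36 CPM), and against it the difference was smallest, at 4.52. That zone was 13 to 66 spots per section, left from a cluster of 332 spots in all after habenula spots were taken out of it. Whether its Chrnb4 UMIs came from habenula tissue was not tested.

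Chrnb3 codes for the beta3 subunit, an accessory subunit that joins other alpha and beta subunits, and lies 3481 bases from Chrna6 on chromosome 8. Its habenula level was 96.3 and 107 CPM at P21, 39.4 CPM in the adult section and 134 and 135 CPM in aged sections. No other zone was above 5.64 CPM in any section. The log2 difference from the mean of the zones was 6.11 ± 0.22 (adjusted p = 4.4e-31), and it was least against CTX, at 4.72. Within the cortex the upper layers had 1.496 to 6.66 CPM and the deep layers 1.43 to 2.54 CPM.

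**Figure D1:**
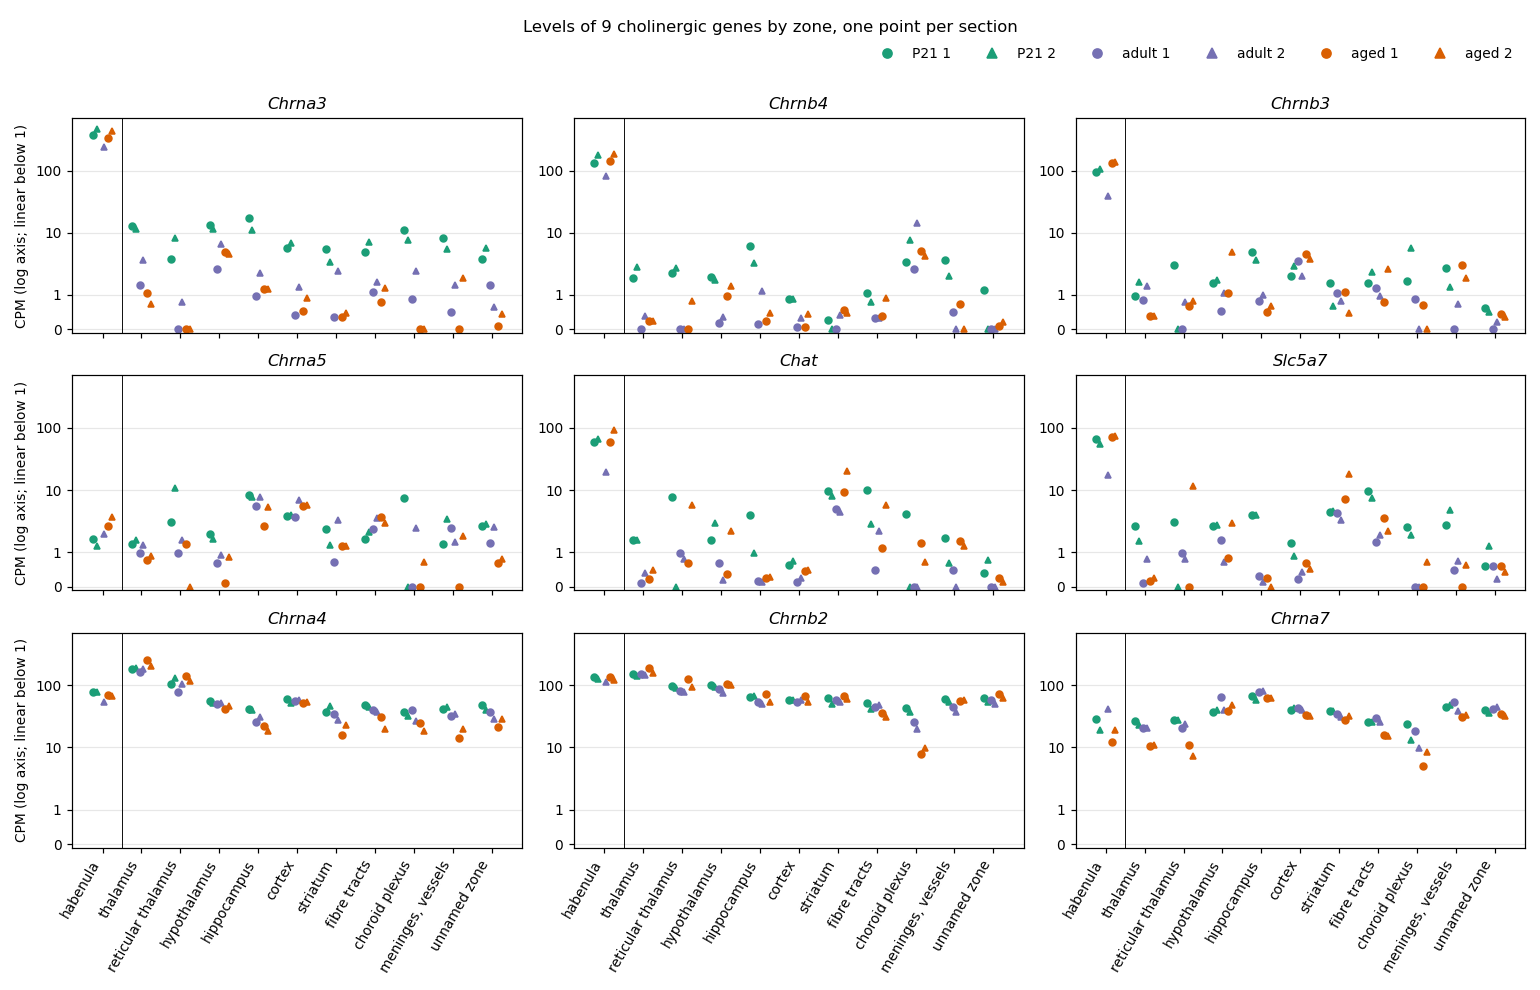
CPM of each of the 9 genes (log axis, linear below 1) in the habenula and the 10 other zones, with 1 point per section, circles and triangles for the sections of an age, and colors for age. Within each of the 5 sections with a habenula, Chrna3, Chrnb4, Chrnb3, Chat and Slc5a7 are higher there than in any other zone. Chrna4 is highest in the thalamus, and Chrna7 is highest in the hippocampus.

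Chat and Slc5a7 showed the same zone. Chat in the habenula was at 59.6 and 67.2 CPM at P21, 19.7 CPM in the adult section and 58.8 and 93.7 CPM in aged sections. Slc5a7 was at 66.8 and 55.8 CPM, 17.7 CPM, and 72.2 and 75.3 CPM. Both were above all other zones in 5 of 5 sections, and the adult section, with only 10 UMIs of Chat and 9 of Slc5a7, was the lowest for both. The log2 difference from the mean of the zones was 5.28 ± 0.24 for Chat (adjusted p = 5.8e-27) and 4.95 ± 0.29 for Slc5a7 (adjusted p = 2.7e-21).

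The striatum, whose interneurons include cholinergic cells, was the second zone for both genes on average. Chat there was at 9.84 and 7.98 CPM at P21, 5.04 and 4.51 CPM in adults and 9.14 and 20.4 CPM in aged sections. The habenula exceeded it by 2.27 for Chat and 2.62 for Slc5a7 on the log2 scale, which were the smallest differences of either gene from any zone. In FT, Chat ranged from 0.48 to 10.2 CPM and Slc5a7 from 1.44 to 9.57 CPM. In the habenula 23 of 40 and 16 of 33 spots at P21, 3 of 22 in the adult section, and 10 of 37 and 21 of 59 in aged sections held UMIs of both genes.

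The 2 subunits of the common forebrain receptor were distributed otherwise. Chrnb2, the beta2 subunit, was at 134 and 126 CPM in the habenula at P21, 112 CPM in the adult section, and 135 and 119 CPM in the aged sections, against 85.1, 83.9, 73.5, 89.8 and 73.4 CPM in the rest of the same sections. The habenula was above the rest in 5 of 5 sections by 1.497 to 1.63 times, and TH alone exceeded it, with 143 to 191 CPM over 6 sections. The log2 difference from the mean of the zones was 0.88 ± 0.11 (adjusted p = 1.9e-09), with a call in 7 of 10 zones. Against TH the difference was −0.51, which was not called.

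Chrna4, the alpha4 subunit, was at 78.8, 77.4, 53.2, 69.5 and 66.2 CPM in the habenula in the same order of sections, or 0.736 to 1.10 times the rest of the section. Its highest zone was TH, with 182 and 188 CPM at P21, 165 and 185 CPM in adults, and 250.4 and 207 CPM in aged sections, followed by RT with 78.4 to 139.7 CPM. The habenula was called lower than TH (log2 −1.69) and RT (−0.83) and higher than 6 other zones. Against the mean of the zones it differed by 0.43 ± 0.16 (adjusted p = 0.025), less than the 1.5-fold asked for a call. In the cortex the deep layers had 78.7 to 92.4 CPM and the upper layers 20.5 to 30.6 CPM, with no overlap over 6 sections.

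Chrna7 codes for the alpha7 subunit. Its habenula level was 28.5 and 19.0 CPM at P21, 41.4 CPM in adult section 2, and 12.0 and 19.3 CPM in aged sections, from 9 to 52 UMIs. The habenula was called lower than 6 zones, most of all HP (log2 −1.69), higher than VS (0.71), and was not called against 3. The difference from the mean of the zones was −0.45 ± 0.18 (adjusted p = 0.042), also under 1.5-fold. HP was highest in each section, at 58.4 to 79.7 CPM, and within it CA3 had 74.6 to 137 CPM.

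Chrna5, the alpha5 subunit and the third gene of the chromosome 9 group, was rare. The habenula held 3, 1, 1, 2 and 8 UMIs in the 5 sections, that is 1.64, 1.27, 1.97, 2.67 and 3.68 CPM, where 3 UMIs in the sum correspond to 1.38 to 5.91 CPM. Its level did not differ detectably from the mean of the zones at this depth (log2 0.06 ± 0.49, adjusted p = 0.95). CA1 of the hippocampus had the most, with 32.2 and 38.7 CPM at P21, 22.5 and 32.3 CPM in adults and 15.5 and 27.0 CPM in aged sections. Deep cortical layers had 5.10 to 13.3 CPM and upper layers 1.71 to 3.09 CPM. The habenula was called lower than HP (log2 −1.497) and CTX (−1.27) and was not called against the other 8 zones.

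In all, 6 of the 9 genes were called higher in the habenula than in the mean of the other zones and 0 lower, where 10.0% of the 14334 genes tested were called higher and 8.80% lower. Zone by zone, the habenula was higher for 17.4% of genes against CTX, 15.2% against HP, 13.3% against TH, 11.6% against RT, 8.78% against HY, 13.0% against STR, 11.9% against FT, 13.4% against VS, 10.4% against meninges and vessels and 18.6% against the unnamed cluster. It was lower for 13.5% against CTX, 12.8% against HP, 10.8% against TH, 10.3% against RT, 8.75% against HY, 11.0% against STR, 17.3% against meninges and vessels and 13.3% against the unnamed cluster. The median log2 difference of the 9 genes was 4.95, and that of all genes tested was −0.0031. With a single ratio per section in place of the fit, each of these 6 genes was above the rest of its section in 5 of 5 sections. An exact sign-flip permutation test of those 5 ratios gave a two-sided p = 0.0625 for each of them, the smallest that 5 sections allow.

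**Figure D2:**
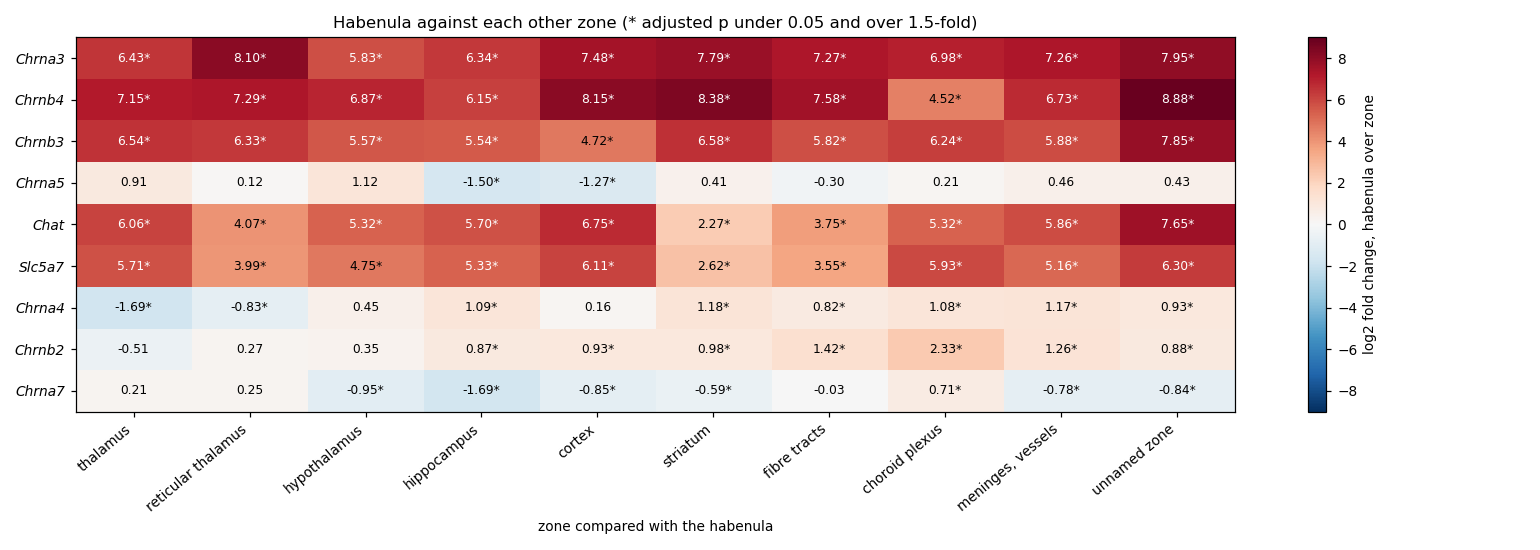
Fitted log2 difference of the habenula from each of the 10 other zones (columns) for the 9 genes (rows), with red for higher and blue for lower in the habenula and a star where called. The top 3 genes, Chat and Slc5a7 are called higher than every zone, and Chrna4 and Chrna7 are called lower than some zones and higher than others.

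Over the 65 sums of a section and a zone, Pearson's r of log2(CPM + 1) described which genes were distributed most alike, with sums of a section sharing its library and depth. Chat and Slc5a7 had r = 0.93, Chrna3 and Chrnb4 0.86, Chrna3 and Chrnb3 0.85, and Chrna4 and Chrnb2 0.70. Outside the 9 genes, Gpr151 and Gm5741 (both 0.95) and Pou4f1 (0.93) were most like Chrna3. Pou4f1 (0.90) was also first for Chrnb4, and Nppa (0.89) for Chrnb3. For both Chat (0.95) and Slc5a7 (0.96) it was Slc18a3, the vesicular acetylcholine transporter, whose single exon lies inside the Chat gene on chromosome 14. Nefh (0.92) led for Chrna4, Spock2 (0.92) for Chrnb2 and Lrrtm4 (0.89) for Chrna7, whereas Chrna5 reached 0.58, with Csnk1a1. Gpr151 and Pou4f1 were 2 of the 6 genes that defined the habenula spots.

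The deposited Moran's I, a score of how far a gene's counts cluster in space (0 for none), was lowest in the section without a habenula for Chrnb4, Chrna3, Chrnb3 and Slc5a7 and not for Chat. For Chrnb4 it was 0.377 and 0.316 at P21, −0.002 in adult section 1, which had no habenula, 0.147 in adult section 2, and 0.445 and 0.485 in aged sections. For Chrna3 adult section 1 had 0.038 and the other sections 0.178 to 0.524. The adult sections were close for Chrnb3 (0.026 and 0.036) and Slc5a7 (0.0098 and 0.023), and Chat had 0.115 in adult section 1 and 0.090 in adult section 2. Chrna4, which marks the thalamus, had 0.293 to 0.562 over 6 sections, adult section 1 included.

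**Figure D3:**
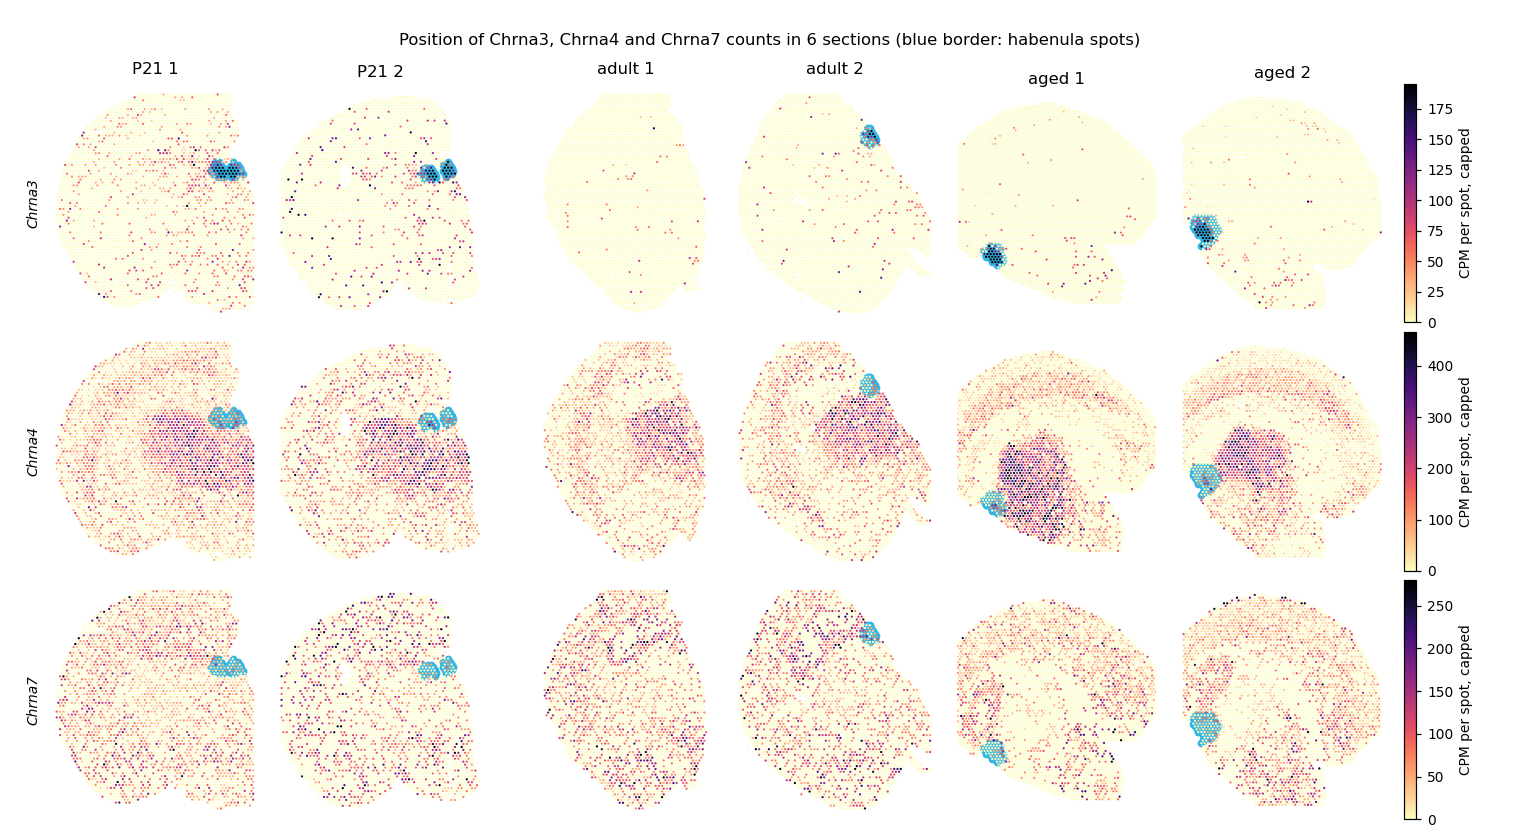
Spots of the 6 sections colored by CPM of Chrna3 (top), Chrna4 (middle) and Chrna7 (bottom), capped at the top 0.5% of spots, with a blue border around the habenula spots. Chrna3 is dense within the border in 5 sections and scattered elsewhere, mostly at P21. Chrna4 fills the thalamus and lines the deep cortex, and Chrna7 is spread over hippocampus, cortex and hypothalamus.

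Of 36 further genes of acetylcholine handling and signaling, 31 could be tested, and 8 were called higher and 7 lower in the habenula than in the mean of the other zones, where 10.0% and 8.80% of all genes were. The median log2 difference of the 31 was −0.20, against −0.0031 for all genes. Among genes of choline supply, synthesis, packaging and breakdown, 3 of 8 were higher and 0 lower. Slc18a3 was at 91.9, 90.1, 39.4, 94.9 and 104 CPM in the habenula of the 5 sections and differed by 5.001 ± 0.22 (adjusted p = 2.6e-27). Prima1, which anchors acetylcholinesterase to the membrane, differed by 1.96, and Ache, that enzyme, by 0.70. Of the cholinergic neuron factors, 2 of 6 were higher and 1 lower. Zic4, a zinc finger transcription factor, had 74.4, 109, 63.0, 84.2 and 85.0 CPM in the habenula against 3.18 to 5.50 CPM in the rest of these sections (log2 4.45 ± 0.16, adjusted p = 4.1e-31).

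Of the chaperones and modulators of nicotinic receptors, 0 of 8 were higher and 4 lower. They included Lypd1 (−1.90) and Ly6e (−0.72), membrane-anchored proteins of the Ly6 family. Muscarinic receptors, which signal through G proteins, split into 2 higher, 2 lower and 1 not called. Of the other nicotinic subunits, 1 of the 4 tested was higher, and it was Chrna6, named after its values were seen. In the habenula it had 3.28 and 5.08 CPM at P21, 0.00 in the adult section and 1.34 and 4.13 CPM in aged sections. The values of the adult section and aged section 1 lie under the level of 3 UMIs in those sums, which is 5.91 and 4.01 CPM.

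With distance from the habenula, Chrna3 fell steeply in all 5 sections but not to the same floor. At 1 grid step from the outermost habenula spot it was at 52.9 and 62.6 CPM at P21, 29.0 CPM in the adult section, and 8.23 and 0.00 CPM in aged sections. At 8 steps the P21 sections still had 18.2 and 8.97 CPM, while the other 3 sections had 0.00 to 0.81 CPM. Chrnb4 did likewise, with 16.1 and 24.1 CPM at 1 step at P21 and 0.00 in both aged sections. Chrna4 rose with distance, toward the thalamus, from 53.2 to 78.8 CPM in the habenula to 86.3 to 212 CPM at 7 steps.

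**Figure D4:**
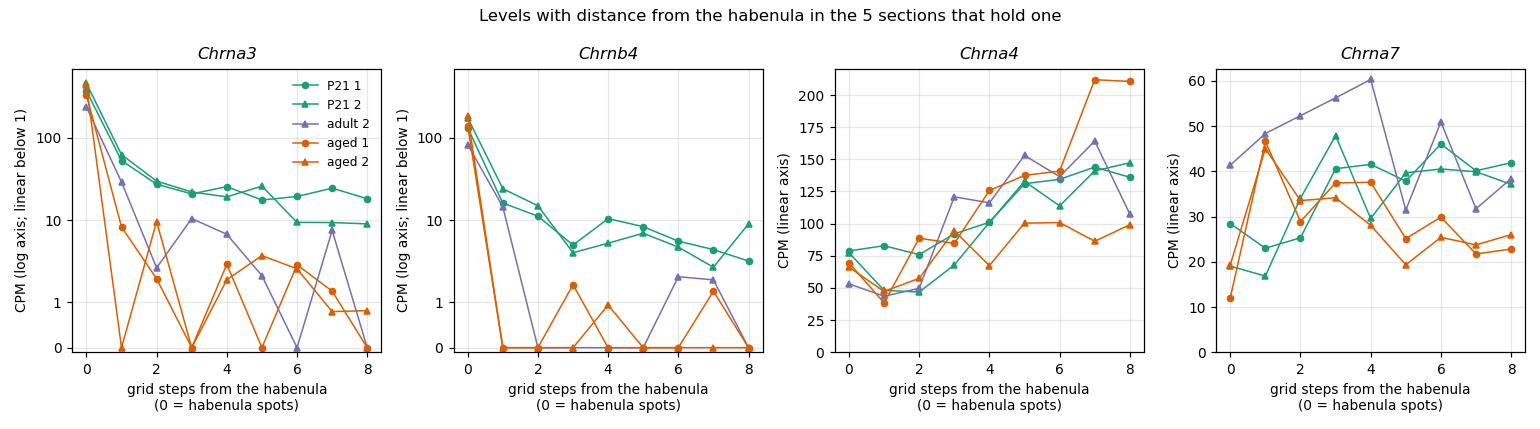
CPM of Chrna3 and Chrnb4 (log axes, linear below 1) and of Chrna4 and Chrna7 (linear axes) against distance from the habenula in grid steps, with 0 for the habenula spots and a line per section. Chrna3 and Chrnb4 drop within the first steps and stay above 2 CPM in both P21 sections, and Chrna4 climbs in all 5 sections.

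The age comparisons asked which of these genes differed at P21 or in aged mice from adults, zone by zone. Both share the adult sections, so a high or low adult value enters both. In the habenula, where adult section 2 is the sole adult value and was assumed to vary like the other ages, 0 of the 8 genes tested were called at P21 vs. adult, against 0.282% of the 10987 genes tested. At an unadjusted p under 0.05, edgeR gave 5 of them, all higher at P21, and DESeq2 with adjustment called 0. Without P21 section 2 there was 1 call, and with aged section 1 or aged section 2 left out there were 4 or 5. The fitted differences were 0.85 ± 0.22 for Chrna3 (adjusted p = 0.18), 0.92 ± 0.29 for Chrnb4 (0.29), 1.39 ± 0.29 for Chrnb3 (0.083), 1.71 ± 0.45 for Chat (0.19) and 1.86 ± 0.39 for Slc5a7 (0.083). For all 5 genes the adult value was the lowest of the 5 sections. Chrna4 differed by 0.60, Chrnb2 by 0.26 and Chrna7 by −0.68, and Chrna5 was too rare to be tested.

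In aged vs. adult, 3 of the 8 genes were called higher in the habenula and 0 lower, against 0.573% and 1.02% of all genes. Slc5a7 was higher by 2.05 ± 0.39 (adjusted p = 0.018), Chat by 2.02 ± 0.44 (0.036) and Chrnb3 by 1.76 ± 0.29 (0.011). The aged sections, at 58.8 to 135 CPM over these 3 genes, lay above the single adult section, at 17.7 to 39.4 CPM, and the p-values cannot separate age from that section. Chrnb4 (1.01, adjusted p = 0.11), Chrna3 (0.71, 0.14), Chrna4 (0.34), Chrnb2 (0.16) and Chrna7 (−1.28, 0.19) were not called. DESeq2 called only Chrnb3, and edgeR called 5 genes when either aged section was left out.

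These differences turn on the single adult section. Its habenula was the smallest, its counts of the called genes were 9 to 20 UMIs, and the labels do not give the plane of the cut. Habenula genes were not all low or all high in it. Of the genes of the rule, Lrrc55 alone was lowest there, at 333 CPM against 484 to 801 CPM in the other 4 sections. Gng8 was highest there, at 593 CPM against 322 to 512 CPM. Gpr151 (638 CPM), Pou4f1 (282 CPM), Tac2 (1318 CPM) and Nwd2 (764 CPM) lay within the range of the other 4 sections. Calb2 was at 1221 CPM in that section and 1023 to 1104 CPM in the other 4, and Wif1 at 39.4 CPM against 16.4 to 32.1 CPM. Tac1, which is known from the dorsal part of the medial habenula, was at 124 CPM there, 73.9 and 92.6 CPM at P21, and 128 and 113 CPM in aged sections. The part that the cut plays in the age differences was not tested. Of the 36 further genes 17 were tested here, with 0 called at P21 vs. adult, where 3 had an unadjusted p under 0.05 by edgeR, and 3 in aged vs. adult. Those 3 were Slc18a3 (1.34), Lynx1 (−1.22) and Lypd1 (−2.10), the last with 49.2 CPM in the adult section and 14.7 and 10.1 CPM in aged sections.

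**Figure D5:**
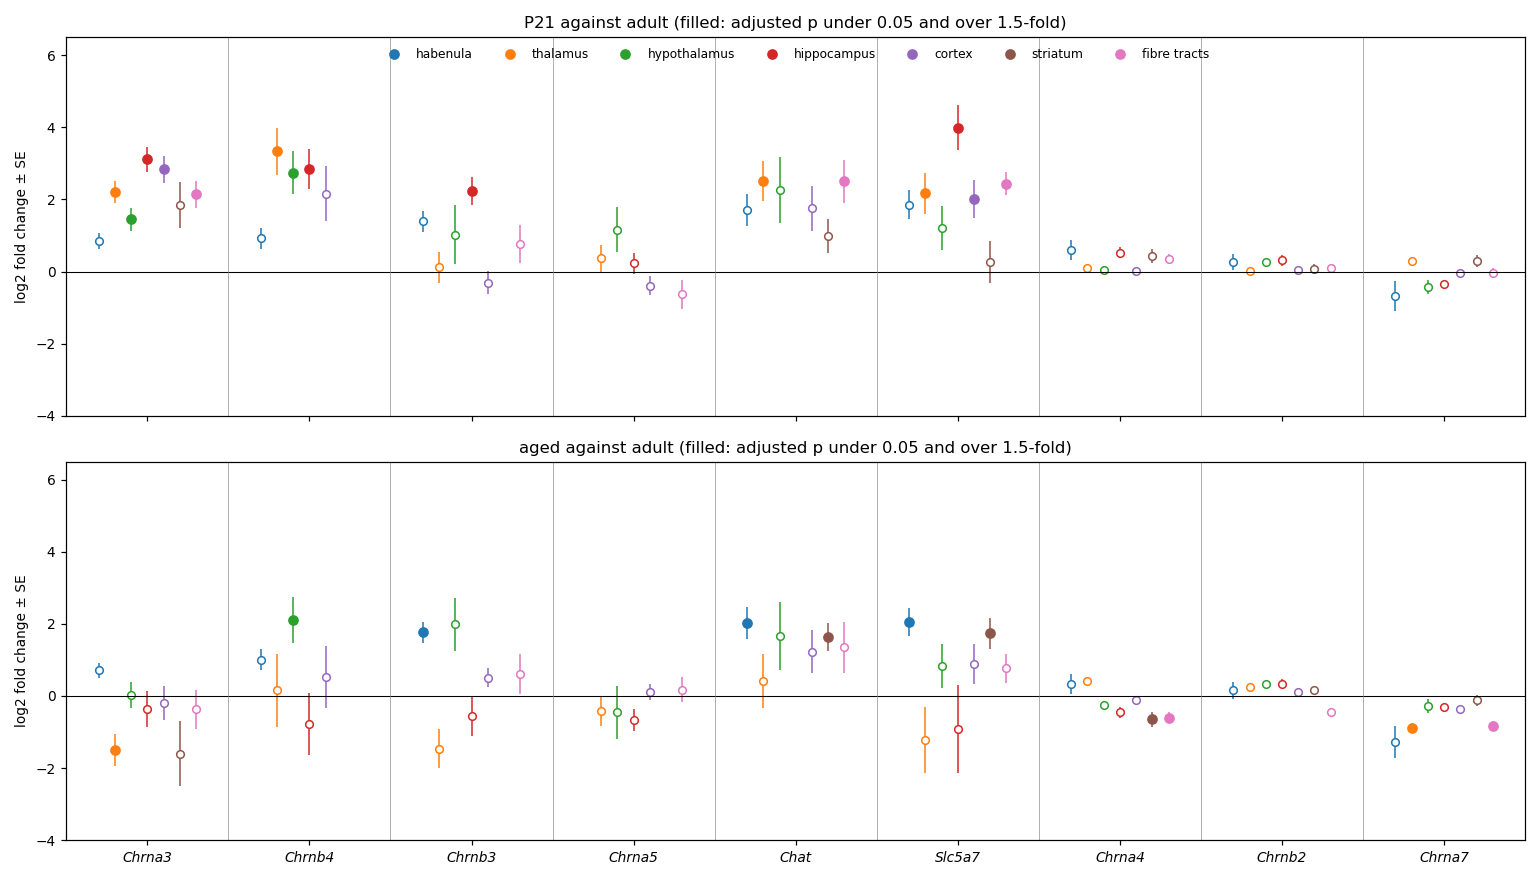
Fitted log2 fold change with its SE for P21 vs. adult (top) and aged vs. adult (bottom) of the 9 genes in the habenula and 6 other zones, filled where called. All calls at P21 are above 0 and fall on Chrna3, Chrnb4, Chrnb3, Chat and Slc5a7, and none is in the habenula. Calls in aged tissue lie on both sides of 0.

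Outside the habenula, 15 of the tests of the 9 genes in CTX, HP, TH, HY, STR and FT were called at P21 vs. adult, all of them higher at P21. Some of the called genes were rare in adults. The adult TH sums held 1 and 4 UMIs of Chat and 0 and 4 of Chrnb4. The P21 sums there held 29 and 16 of Chat and 35 and 28 of Chrnb4. Genes this rare in adults had little room to be called lower. The direction shared by the 15 calls was not tested apart from this. All genes were called higher at shares of 4.52% in CTX, 5.45% in HP, 5.03% in TH, 2.48% in HY, 2.71% in STR and 5.47% in FT. Chrna3 was called in CTX (2.84), HP (3.11), TH (2.21), HY (1.45) and FT (2.14). In HP it was at 17.1 and 11.1 CPM at P21, 0.97 and 2.29 CPM in adults and 1.26 and 1.25 CPM in aged sections, with no overlap between P21 and the other ages. Chrnb4 was called in HP (2.85), TH (3.34) and HY (2.74), Chrnb3 in HP (2.24), Chat in TH (2.51) and FT (2.50), and Slc5a7 in CTX (2.02), HP (3.99), TH (2.18) and FT (2.44). Chrna4, Chrna5, Chrna7 and Chrnb2 were called in none of the 6 zones.

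Some of the 6 genes that defined the habenula were also called higher at P21 outside it, 6 of 6 in HP, 3 in CTX, 3 in TH, 2 in HY, 2 in FT and 0 of the 5 tested in STR. Gpr151 was called higher at P21 in CTX (1.48), HP (2.65), HY (3.04) and FT (1.70), and Pou4f1 in CTX (3.74), HP (2.81), TH (1.54) and FT (2.28). Over all spots outside the habenula, Gpr151 was at 13.1 and 11.6 CPM at P21, 1.33 and 4.38 CPM in adults and 2.29 and 4.41 CPM in aged sections, and Chrna3 at 9.51 and 9.01, 1.07 and 2.52, and 1.05 and 1.41 CPM. Outside the habenula at P21 and in adults, Tac2 was at 63.4 and 60.6 against 16.1 and 42.2 CPM, and Pou4f1 at 4.23 and 4.97 against 0.36 and 1.36 CPM. Lrrc55 was at 34.4 and 34.3 against 29.3 and 23.7 CPM, and Gng8 at 10.0 and 9.13 against 5.87 and 8.40 CPM. Nwd2 alone of the 6 was level there, at 48.2 and 51.2 CPM at P21 and 47.5 and 51.7 CPM in adults. It was also at 97.1 and 107 CPM in the unnamed cluster at P21. Whether any of these counts came from habenula tissue was not tested. Without adult section 1, which had no habenula, 9 tests of the 9 genes were called, and without P21 section 1 there were 6. The detection filter of the study, which drops genes seen in under 10% of all spots, left 0.

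In aged vs. adult, 8 tests in the 6 zones were called, 3 higher and 5 lower, with 4 without aged section 2 and 12 without aged section 1. All genes were called higher and lower at shares of 7.94% and 4.68% in CTX, 6.19% and 6.16% in HP, 7.59% and 7.45% in TH, 6.64% and 4.78% in HY, 8.30% and 6.00% in STR, and 18.2% and 12.1% in FT. For 9 genes in 6 zones, 8 calls lie near these shares, so they are not read as a trait of the 9 genes. Chat (1.64) and Slc5a7 (1.75) were higher in STR. Aged section 2 led both, with 20.4 CPM of Chat and 18.1 CPM of Slc5a7 against 9.14 and 7.31 CPM in aged section 1, and without it neither was called. In that section 39 of 246 STR spots held UMIs of both genes, against 3 to 10 spots in the other 5 sections. Lhx8, a factor of forebrain cholinergic neurons named after its values were seen, was also called higher in STR (1.38), and the part of a different cut was not tested. Chrnb4 was called higher in HY (2.10), from 0.17 and 0.36 CPM in adults to 0.96 and 1.37 CPM. Both adult values lie under the level of 3 UMIs in those sums, which is 0.519 and 0.543 CPM.

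The lower calls in aged tissue were small in fold or in count. Chrna7 was lower in TH (−0.89 ± 0.13, adjusted p = 0.00059), at 20.7 and 20.7 CPM in adults and 10.7 and 11.1 CPM in aged sections, and in FT (−0.84), at 29.2 and 25.99 CPM and 15.6 and 15.0 CPM. Chrna4 was lower in STR (−0.65) and FT (−0.60), at 40.1 and 37.2 CPM in FT in adults and 31.0 and 19.8 CPM in aged sections. Chrna3 was lower in TH (−1.49), at 1.45 and 3.67 CPM and at 1.09 and 0.72 CPM, from 12 and 37 UMIs and from 14 and 9 UMIs. The habenula marker Gpr151 in TH was at 1.93 and 9.82 CPM in adults and 3.74 and 8.10 CPM in aged sections. The part of habenula tissue in this difference was not tested.

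Summed over whole sections, 5 of 9 genes were called higher at P21, against 5.69% of all genes, and 4 of 9 in aged tissue, against 23.8%. None was called lower, against 2.37% and 4.68% of all genes. Chrna3 (2.53), Chrnb4 (2.66), Chat (2.35), Slc5a7 (2.19) and Chrnb3 (1.34) were called at P21. Chat (1.92), Chrnb4 (1.89), Slc5a7 (1.51) and Chrnb3 (1.32) were called in aged sections. These levels also depend on how much habenula a section holds. Chrna3 was at 16.9 and 17.4 CPM at P21, 1.07 CPM in the adult section with no habenula and 4.86 CPM in the other, and 4.10 and 10.3 CPM in aged sections.

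Whether an age difference was larger in the habenula than elsewhere was tested by the zone-by-age term, with the section as a block. At P21 vs. adult 0 of 9 genes were called (0.0284% of 14097 genes called higher and 0.00709% lower), 1 had an unadjusted p under 0.05, which was Chrna3 (−0.88, adjusted p = 0.28), and DESeq2 called 0. In aged vs. adult 1 of 9 genes was called, against 0.326% of genes higher and 0.383% lower. It was Chrna3, whose aged minus adult difference was larger in the habenula than in the mean of CTX, HP, TH, HY, STR and FT by 1.88 ± 0.31 (adjusted p = 0.0012). The ratio of habenula to the rest of the section was 321 and 309 in aged sections, 94.5 in adult section 2 and 39.4 and 51.4 at P21. In the same test the habenula markers Lrrc55 (1.32), Nwd2 (1.64) and Gng8 (1.20) were called as well, and Gpr151 (0.65, adjusted p = 0.50), Tac2 and Pou4f1 were not.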

How the data were processed

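The authors made the deposited counts, UMIs per gene and spot without normalization, on mm10 with Space Ranger, whose release is 3.1.1 in the headers of aged files and 2.0.0 in the others (the labels list 2.1.0). The deposited Moran's I score was read as given. Spots with under 250 genes or 500 UMIs were left out. Zones were Leiden clusters (leidenalg 0.10.2, resolution 0.3) of 10 principal components of 3000 variable genes, computed without the 9 members, the further cholinergic genes and the habenula markers, and named by marker panels. UMIs were summed per section and zone.

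edgeR 4.0.16 (TMM, filterByExpr, quasi-likelihood test) fitted all genes. Each SE is the absolute log2 difference divided by the square root of F, the statistic of that test. Zone contrasts had the section as a block, and age contrasts had age only. Calls needed a Benjamini-Hochberg adjusted p under 0.05 and over 1.5-fold. DESeq2 1.42.0 was an alternative. The script was tested on simulated data. The methods' Wilcoxon test over spots was not used, because spots are not replicates. The design planned 6 sections with a habenula, and 5 had it. All 9 members are named, with at most 6 further genes per comparison by smallest adjusted p and the 3 genes most like each member. Chrna6, Lhx8 and Chrng were named outside this rule, after their values were seen. The members and lists were chosen with earlier results of these data known. Positions are from GENCODE vM21. The labels name 2 biological replicates per age.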

Additional observations from a re-analysis of the deposited data

Results flagged for a closer look

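For Chrna3, the aged vs. adult difference in the habenula exceeded the mean difference of the 6 other zones by 1.88 on the log2 scale (SE 0.31, edgeR adjusted p = 0.0012), which drew attention because the same contrast differed between zones in a test of that difference. The habenula was at 238 CPM in the single adult section and 335 and 437 CPM in aged sections. TH, alone of the 6 zones called lower, was at 1.45 and 3.67 CPM in adults and 1.09 and 0.72 CPM in aged sections. HP was at 0.97 and 2.29 against 1.26 and 1.25 CPM, and HY at 2.59 and 6.52 against 4.82 and 4.61 CPM. CTX was at 0.43 and 1.36 against 0.54 and 0.92 CPM, STR at 0.36 and 2.46 against 0.37 and 0.47 CPM, and FT at 1.12 and 1.59 against 0.78 and 1.28 CPM. These are low counts, with 1 and 6 against 2 and 3 UMIs in STR and 7 and 10 against 4 and 7 in FT. Outside the habenula, adult section 2, which held the adult habenula, was at 2.52 CPM and adult section 1 at 1.07 CPM. The result was called under each of the 12 alternatives that could be run, all of which keep the single adult habenula section, so they do not bear on that section. The habenula markers Lrrc55 (1.32), Nwd2 (1.64) and Gng8 (1.20) were called in the same test. Slide version, the probe design that the paper describes, tissue transfer and Space Ranger release differed between these ages. Their part in the difference was not tested.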

How the results depend on the processing

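In the habenula against the other zones, Chrna3, Chrnb4, Chrnb3, Chat and Slc5a7 were called higher under all 13 alternatives, and the count of the 9 genes was 5 to 7. Chrnb2 was not called with zones from 20 principal components. The age counts moved more. P21 vs. adult in the habenula went from 0 to 4 genes with every gene that had a UMI, and ranged from 0 to 5 as each section was left out (1 without P21 section 2, 4 and 5 without aged sections 1 and 2). Aged vs. adult in the habenula went from 3 to 5 genes with every gene that had a UMI, to 1 with DESeq2 and to 0 with the detection filter of the study, and ranged from 3 to 5 (5 without either aged section). Over the 6 other zones, P21 vs. adult went from 15 calls to 9 over sections with a habenula only (chosen after seeing the data). That is the same fit as the one without adult section 1. The count ranged from 6 (without P21 section 1) to 18 as each section was left out. Aged vs. adult went from 8 calls to 3 with the detection filter and ranged from 4 (without aged section 2) to 12 (without aged section 1). The detection filter also left 0 calls in the P21 vs. adult contrast over the 6 zones and 0 in both whole-section contrasts, since it drops genes seen in under 10% of all spots. Of 63 called results 34 were called in every alternative, and of 33 not called 18 were called in at least 1. Leaving out adult section 2 was not run for the habenula by age, since no adult habenula was left.

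The replicate number as a block gave 3 calls in place of 0 for P21 vs. adult and 5 in place of 3 for aged vs. adult in the habenula, with 12, 5, 7 and 5 calls for the 6 zones and the whole section in the 2 contrasts. Same-numbered sections deviated together with correlations of 0.14, −0.13 and −0.34, so the number was not taken as a pairing.

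Differences that were not called changed sign in 11 cases. Chrna5 in the habenula was −0.10 and −0.55 without aged sections 1 and 2, in a range of −0.55 to 0.48 as each section was left out. In the zone-by-age test at P21, Chrna5 was 0.41 with markers at 3 times the mean, Chrna7 0.15 at 10 times, Chrnb2 −0.060 without border spots, and Chrnb4 0.46 (range −0.80 to 0.46) and Chat 0.14 (range −0.53 to 0.14) without P21 section 1. In aged vs. adult, that test gave Chrnb2 as −0.024 at 3 times, −0.099 without border spots and −0.028 without aged section 2 (range −0.028 to 0.048). Chrna7 in the habenula at P21 vs. adult was 0.12 at 10 times. Depth limited Chrna5 in the habenula, with at most 8 UMIs, and the adult habenula, with 9 to 20 UMIs for the genes called in aged tissue. It also limited Chrna3 outside the habenula, with 1 to 6 UMIs in STR of adult and aged sections.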

Other observations

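In whole sections of aged vs. adult mice, 13 of the 36 further cholinergic genes were called higher and 3 lower, where 23.8% of all genes were called higher and 4.68% lower. Of the chaperones and modulators of nicotinic receptors, 0 of 8 were higher and 2 lower. Lynx1, a Ly6 protein that damps nicotinic receptors, fell by 0.89 on the log2 scale, from 434 and 406 CPM in adult sections to 255 and 234 CPM in aged sections. Bche, a second enzyme that splits choline esters, fell by 1.51, from 9.87 and 8.76 CPM to 3.28 and 3.76 CPM. Muscarinic receptors had 3 of 5 higher and 0 lower, among them Chrm1 (0.88), with 36.7 and 35.8 CPM in adults and 76.8 and 66.6 CPM in aged sections, and Chrm4 (0.84). Whole sections also differed in their mix of zones. FT held 6257345 of 52499064 and 6270640 of 51236277 UMIs in adult sections. In aged sections FT held 5128876 of 81997167 and 5465747 of 106783660 UMIs. The part of this mix in these differences was not tested.

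Of the 9 nicotinic subunits outside the member list, 5 were higher and 0 lower in aged whole sections. The 0 says nothing of subunits with almost no UMIs in adults, such as Chrnd and Chrng, which had no room to be called lower. Chrnd, a subunit of the muscle receptor, had 0 UMIs in each of the 4 P21 and adult sections, which allows up to 0.0333 to 0.0707 CPM, and 28 and 47 UMIs, or 0.341 and 0.440 CPM, in aged sections. Chrng, another muscle subunit named after its values were seen, had 0 to 5 UMIs in the P21 and adult sections and 29 in each aged section. Aged sections were made with another slide version and Space Ranger release, and with a probe design that the paper calls enhanced. The part of these in the counts was not tested.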
